A study of Mus musculus with 18 samples.

Results

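The effect of trichostatin A (TSA) on gene expression after 24 h was set against the effect of bone morphogenetic protein 2 (BMP2) after 24 h, as the difference of both effects for each gene. Of the 18 Mouse Genome 430 2.0 arrays of the study, 12 enter this difference. These are 4 arrays of cultures treated with 50 nM TSA (TSA replicates 1 to 4), with control replicates 1 to 4, and 2 arrays of cultures treated with 10 ng/ml BMP2 (BMP2 replicates 1 and 2), with control replicates 5 and 6. The members are thus chosen by treatment and time. The controls were divided so that the treatments share none, and the labels do not themselves assign controls 5 and 6 to BMP2. The cells were neural precursors grown as neurospheres from the ganglionic eminences of E15.5 C57BL/6 mouse embryos, dissociated and plated as a monolayer. No genetic change is named. Nothing in the labels tells separate cultures from repeat hybridizations, so errors and p-values measure the spread between these arrays, which may be technical.

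TSA inhibits histone deacetylases, the enzymes that remove acetyl groups from histones and other proteins, and histone acetylation accompanies open chromatin and transcription. BMP2 is a secreted ligand that binds serine/threonine kinase receptors. The receptors phosphorylate Smad proteins, which enter the nucleus and switch on target genes, among them the Id genes and several inhibitors of the pathway itself. In neural precursors of the ventral forebrain, BMP signaling is known to favor astrocytes over oligodendrocytes and neurons.

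Each probe set has a linear signal per array, quantile-normalized here. An effect is a difference of log2(signal + 32) between treated and control arrays, which understates changes of dim genes, and the difference of effects is the TSA effect minus the BMP2 effect. Of 45101 probe sets, 19000 had a mean of at least 100 in at least 1 of the 4 groups and were tested in 1 limma fit with Benjamini-Hochberg adjustment. They cover 10476 genes, each represented by its brightest probe set. For a gene that reached this limit only in the group where it was high, the direction was partly fixed by the filter. The words rose, fell and differed are used at an adjusted p under 0.05, and standard errors of log2 values stand in parentheses.

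The neural precursor genes Sox2 (5857 to 6547 over the 12 arrays) and Fabp7 (9084 to 10620) were bright on every array, and Dlx2, a homeobox gene of the ganglionic eminence, had signals of 244 to 1262. Of 20 ganglionic eminence and GABAergic genes on the array, 12 reached the limit for testing. Among those below it were Nkx2-1 (highest group mean 46.8), Lhx6 (48.1) and Dlx6 (7.95). None of the 12 microglial genes on the list, such as Cx3cr1 and the C1q genes, and none of the 7 erythroid genes on the array reached the limit for testing. It was reached by 1 of 9 endothelial, 4 of 12 mural and fibroblast and 3 of 7 ependymal and choroid plexus genes. The control sets were not alike. On its brightest probe set Xist, expressed from the inactive X chromosome, had signals of 325 to 1150 on TSA arrays and 594 to 1870 on controls 1 to 4, while BMP2 arrays had 2200 to 3280 and controls 5 and 6 had 2790 to 4470. Controls 5 and 6 differed from controls 1 to 4 in 1850 genes (17.7%). Correlations of log2 signals were 0.904 to 0.939 between the control sets, against 0.952 to 0.985 within controls 1 to 4. Because TSA was measured with one set and BMP2 with the other, a difference between the treatments and a difference in how the sets responded cannot be told apart.

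The effects of TSA and BMP2 differed in 1524 of 10476 genes (14.5%), or 2522 of the 19000 probe sets (13.3%). The TSA effect lay above the BMP2 effect in 772 genes (7.37%) and below it in 752 (7.18%). Alone, TSA raised 2009 genes (19.2%) and lowered 1944 (18.6%), while BMP2 raised 660 (6.3%) and lowered 544 (5.19%). With 4 arrays in each arm, the TSA effect had a median standard error of 0.13 on the log2 scale, against 0.19 for the BMP2 effect with 2 arrays in each arm and 0.23 for their difference. TSA and control arrays of equal number deviated together, and with the replicate number as a block the effects differed in 4808 probe sets. The 2522 became 1465 without control replicate 6, 1374 without BMP2 replicate 1 and 1385 without BMP2 replicate 2.

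Both effects passed the test in 642 genes. Of these, 520 changed the same way, 254 upward and 266 downward, and 122 changed in opposite directions. The 520 are 13.2% of the genes changed by TSA and 43.2% of those changed by BMP2, and the 122 are 3.09% and 10.1%. In 55 of the 520 the effects also differed in size. Among the 772 genes with a higher TSA effect, 521 rose with TSA alone, 122 fell with BMP2 alone and 69 did both. Among the 752 genes with a lower TSA effect, 377 fell with TSA alone, 251 rose with BMP2 alone and 53 did both. Over genes the effects correlated at r = 0.314, a description only, since genes are not independent and the points share arrays.

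**Figure D1:**
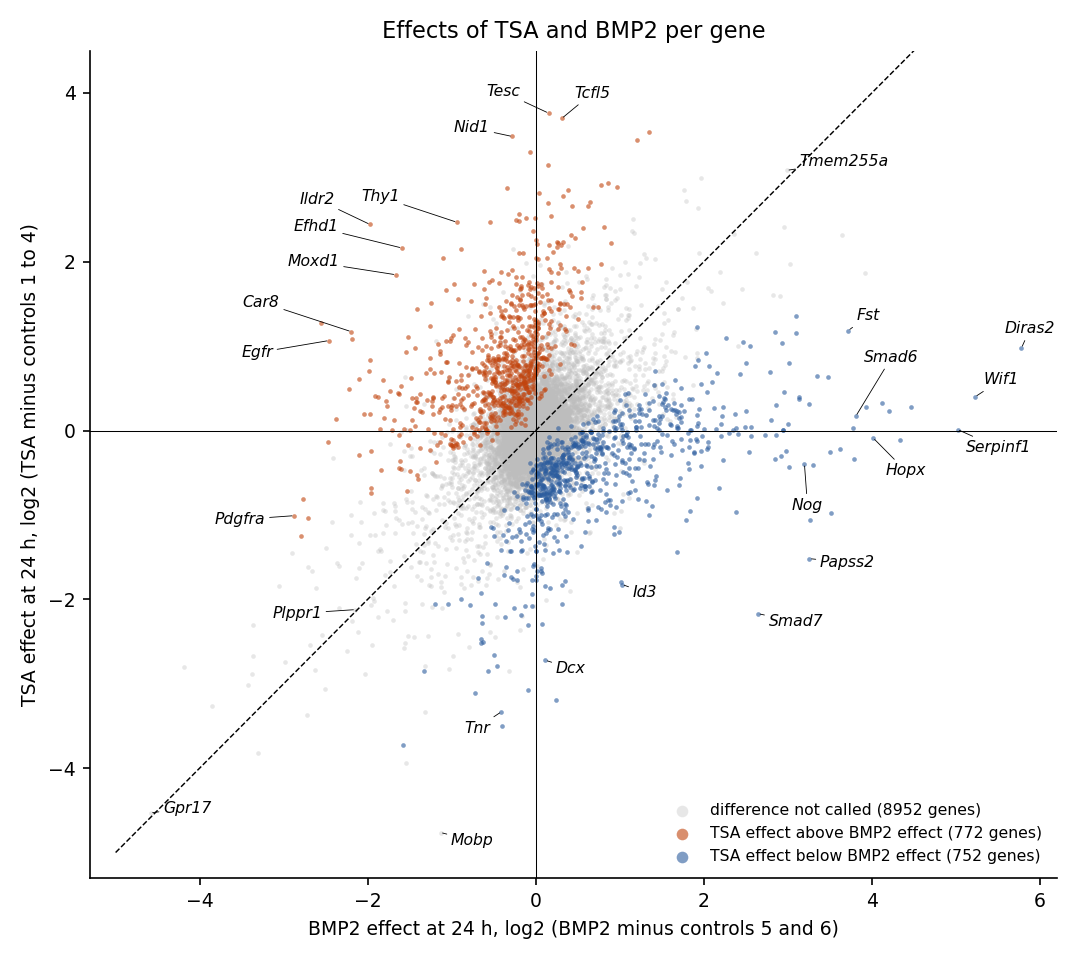
The TSA effect (vertical axis, log2) against the BMP2 effect (horizontal axis, log2) of each of the 10476 genes at 24 h, with equal effects on the dashed line. The 772 genes in red lie above the line, many along the vertical axis, the 752 in blue lie below it, and Gpr17 and Tmem255a sit near the line far from the center.

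Of 15 tested BMP feedback and target genes, the TSA effect lay below the BMP2 effect in 10 and above it in 1. Over all genes the shares were 7.18% and 7.37%. The median difference was -1.71 against -0.01 over all genes. BMP2 raised 8 of the 15 and lowered 0, against 6.3% and 5.19% of all genes. Some members, such as Smad6 and Nog, reached the limit for testing only with BMP2, so that their rise was partly fixed by the filter. TSA raised 3 and lowered 6, against 19.2% and 18.6%. Leaving out single arrays gave 9 to 11 lower members and 1 higher member, and 6 members raised by BMP2 without its replicate 1.

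Smad7, an inhibitory Smad that blocks the receptors, had signals of 75.9, 245, 149 and 60.5 on the TSA arrays, against 697, 661, 759 and 483 on controls 1 to 4. On the BMP2 arrays it had 1752 and 1466, against 295 and 176 on controls 5 and 6. Each TSA array lay below each of its controls and both BMP2 arrays above theirs. The TSA effect was -2.17 (standard error 0.29), the BMP2 effect 2.65 (0.40) and the difference -4.82 (0.49, adjusted p = 2.6e-05, limma). Controls 5 and 6 themselves differed from controls 1 to 4, by -1.37 (adjusted p = 0.0137).

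Smad6, the second inhibitory Smad, and Nog, which encodes the secreted BMP antagonist noggin, rose with BMP2 and had signals near background with TSA. Smad6 had signals of 24.5, 18.2, 63.0 and 52.6 with TSA, against 8.19, 32.4, 48.4 and 36.4 on controls 1 to 4, and 927 and 771 with BMP2, against 26.5 and 34.9 on controls 5 and 6. Its difference of effects was -3.64 (0.39, adjusted p = 3.48e-05). Nog had 29.9, 26.2, 38.3 and 35.3 with TSA, against 42.8, 63.3, 47.9 and 57.5, and 670 and 722 with BMP2, against 39.2 and 56.3. It fell with TSA, by an effect of -0.40 (adjusted p = 0.0243), rose with BMP2 by 3.20, and the effects differed by -3.59 (0.22, adjusted p = 3.87e-07, limma). Atoh8, a basic helix-loop-helix factor, rose with BMP2 by 2.85, with a difference of -3.19, while its TSA arrays all lay below 12.

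The Id genes encode helix-loop-helix proteins that hold basic helix-loop-helix factors away from DNA. Id3 had signals of 570, 325, 242 and 727 with TSA, against 1080, 2250, 1630 and 1638 on controls 1 to 4, and 4825 and 4787 with BMP2, against 2178 and 2507 on controls 5 and 6. Neither pair of groups overlapped, and the difference of effects was -2.86 (0.59, adjusted p = 0.00527). The BMP2 effect on Id3, 1.03, did not pass the test on its own (adjusted p = 0.233), nor did those on Id2 (0.89) and Id4 (0.78). The differences were -1.74 for Id1, -1.71 for Id2 and -1.70 for Id4, and Id2, Id3 and Id4 fell with TSA (effects of -0.83, -1.83 and -0.93). Id1 lost its call without control replicate 6 (adjusted p = 0.0501).

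Some feedback genes rose with both agents. Fst, encoding the activin and BMP antagonist follistatin, had 76.9, 58.7, 149 and 137 with TSA, against 17.3, 18.1, 46.6 and 26.6, and 1058 and 1157 with BMP2, against 83.0 and 33.0. It rose by 1.18 with TSA and by 3.72 with BMP2, and these effects differed by -2.54 (0.40, adjusted p = 8.12e-04). Bambi, a receptor-like inhibitor without a kinase domain, rose by 1.15 with TSA and 1.5 with BMP2, and its difference of -0.35 did not pass the test (95% interval -1.15 to 0.45). Without BMP2 replicate 1 the rise of Bambi with BMP2 fell short of the threshold (adjusted p = 0.0662). Chrdl1, a secreted BMP antagonist, ran the other way in its list, with 518, 328, 393 and 637 on TSA arrays, against 114, 19.8, 32.3 and 62.8, and 48.3 and 79.1 on BMP2 arrays, against 89.9 and 64.9. Its difference was 2.77 (0.52, adjusted p = 0.00289).

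Among 12 tested ligands, receptors and Smads of the pathway, 2 differed, a share near that of all genes (14.5%). Both were receptors and lower in the TSA effect. With the replicate block 4 members were lower and 1 higher. Bmpr1a, a type I BMP receptor, had 2321, 2745, 2297 and 2343 with TSA, against 2402, 2826, 2132 and 2199, and 4173 and 3952 with BMP2, against 2596 and 2077. TSA and control arrays overlapped, BMP2 arrays lay above theirs, and the difference was -0.77 (0.17, adjusted p = 0.00643). Acvr1 differed by -0.84 (0.21, adjusted p = 0.0152). Without control replicate 6 neither passed (adjusted p = 0.0513 for Bmpr1a and 0.0699 for Acvr1), and Acvr1 also missed without either BMP2 array. A second Acvr1 probe set differed by -0.75 without passing (adjusted p = 0.0725). The other Bmpr1a probe sets differed by -0.96 to -1.27, and all passed on the full set of arrays (highest adjusted p = 0.0251, limma).

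Promoter sequences from RefSeq (GRCm38.p6, 250 bases before to 50 after a start) were found for 6 of the 10 feedback and target genes with a lower TSA effect. The GC-rich Smad site GGCGCC, sought on both strands, was present in 2 of the 6, against 13.4% of the 27025 genes of the table. The palindromic Smad site GTCTAGAC was present in 1 of the 6, against 0.248%. The 3 promoters that hold one of these motifs are printed 5′ to 3′ on the gene's strand, with the motif in capitals, and beside them that of Tesc, a gene that rose with TSA and not with BMP2 and also holds GGCGCC.

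Smad6, chr9:64022010-64022309, minus strand: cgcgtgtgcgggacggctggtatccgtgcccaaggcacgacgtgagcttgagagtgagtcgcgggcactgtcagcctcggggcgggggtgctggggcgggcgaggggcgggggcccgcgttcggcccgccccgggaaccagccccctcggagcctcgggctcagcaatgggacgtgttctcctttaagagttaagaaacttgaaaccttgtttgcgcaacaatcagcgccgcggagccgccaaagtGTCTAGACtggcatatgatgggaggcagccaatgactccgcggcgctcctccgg
Id2, chr12:25096043-25096342, minus strand: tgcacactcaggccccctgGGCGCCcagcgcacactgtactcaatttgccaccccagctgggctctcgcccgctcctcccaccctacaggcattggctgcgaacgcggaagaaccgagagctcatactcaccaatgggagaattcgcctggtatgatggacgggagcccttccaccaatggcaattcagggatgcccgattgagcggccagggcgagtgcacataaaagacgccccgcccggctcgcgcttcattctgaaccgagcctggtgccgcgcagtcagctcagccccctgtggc
Id4, chr13:48260866-48261165, plus strand: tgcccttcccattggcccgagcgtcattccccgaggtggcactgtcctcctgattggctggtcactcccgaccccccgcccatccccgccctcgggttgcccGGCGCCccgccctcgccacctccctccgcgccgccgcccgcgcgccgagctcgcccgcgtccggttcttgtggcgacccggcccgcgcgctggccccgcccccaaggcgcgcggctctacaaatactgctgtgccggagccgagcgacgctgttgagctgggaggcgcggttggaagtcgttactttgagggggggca
Tesc, chr5:118027493-118027792, plus strand: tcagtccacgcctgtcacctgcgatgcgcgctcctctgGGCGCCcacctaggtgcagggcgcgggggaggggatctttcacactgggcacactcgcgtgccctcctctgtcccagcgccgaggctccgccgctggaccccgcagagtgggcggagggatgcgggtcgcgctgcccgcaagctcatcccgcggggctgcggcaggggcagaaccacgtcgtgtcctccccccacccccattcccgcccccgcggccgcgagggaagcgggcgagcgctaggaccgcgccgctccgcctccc

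These matches are descriptions of letters within the printed windows. Among the genes with the 12 lowest differences, 2 of the 10 with a promoter held GGCGCC, and among those with the 12 highest 1 of 9. A gene was counted if any of its promoters held the motif. The GC box GGGCGG was present in 9 of 9 genes of the highest and 6 of 10 of the lowest. Of all 27025 genes of the table, tested or not, 38.2% held it. TATAAA was present in 0 of 9 and 3 of 10, against 15.7%.

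All 12 genes with the lowest differences rose with BMP2, and 3 of them, Smad7, Papss2 and Nuak1, also fell with TSA. Some, such as Serpinf1 and Wif1, reached the limit for testing only with BMP2. Serpinf1, a secreted serpin with neurotrophic activity, had 24.9, 28.8, 20.6 and 35.9 with TSA, against 13.9, 40.5, 32.9 and 23.4 on controls 1 to 4, and 2217 and 1326 with BMP2, against 24.5 and 19.3 on controls 5 and 6. TSA arrays overlapped their controls, and the difference of effects was -5.01 (0.30, adjusted p = 3.87e-07). Wif1, a secreted Wnt inhibitor, had 14.3, 6.52, 7.23 and 29.8 with TSA, against 1.33 to 3.82, and 1127 and 1617 with BMP2, against 4.83 and 4.84. Its difference was -4.83 (0.32, adjusted p = 6.93e-07).

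Hopx, a small homeodomain protein without DNA binding, had 171, 97.2, 110 and 146 with TSA, against 168, 135, 119 and 136, and 3971 and 4634 with BMP2, against 335 and 162. Its difference was -4.10 (0.31, adjusted p = 1.68e-06). Diras2, a Ras-like GTPase, rose with both, by 0.98 with TSA to signals of 52.0 to 149, and by 5.78 with BMP2 to 3517 and 3619. The neuropeptide precursor Npvf (-4.45), the lens connexin Gja3 (-4.19), the kinase Stk32b (-4.12) and Stum (-3.97) rose with BMP2 by 3.79 to 4.47, and their TSA effects did not pass the test. Gadd45b, a stress-inducible gene linked to DNA demethylation, rose with BMP2 by 3.01 and differed by -3.44. Cryab, a small heat shock protein, differed by -4.49 with a standard error of 0.96. Its BMP2 arrays had 3046 and 547 and its controls 238 and 18.6, and without control replicate 6 or BMP2 replicate 1 the call was lost (highest adjusted p = 0.0518). A second Cryab probe set differed by -3.94 and passed (adjusted p = 0.00652, limma).

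Matrix genes stood on both sides, with 7 of 31 tested members lower and 6 higher in the TSA effect, against 7.18% and 7.37% of all genes. Papss2, which makes the sulfate donor for proteoglycans, had 81.9, 253, 134 and 82.1 with TSA, against 366, 603, 354 and 393, and 3763 and 2528 with BMP2, against 313 and 276. Neither pair overlapped, with effects of -1.52 for TSA and 3.26 for BMP2. Tenascin C (Tnc) also went both ways, at -1.0 and 1.35, with controls 5 and 6 above controls 1 to 4 by 1.24. Tenascin R (Tnr) and versican (Vcan) fell with TSA (effects of -3.33 and -2.10) and had BMP2 effects of -0.41 and -0.26 that did not pass. Tnr lost its call in the difference without control replicate 6 or BMP2 replicate 1 (highest adjusted p = 0.0701). Nid1, the basement membrane protein nidogen, was the matrix gene with the highest difference. It had 936, 427, 831 and 901 with TSA, against 68.9, 13.8, 29.3 and 48.8, and 87.5 and 42.6 with BMP2, against 116 and 56.8. Its difference was 3.76 (0.47, adjusted p = 1.4e-04).

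Of the 12 genes with the highest differences, 11 rose with TSA, and 6 of these also fell with BMP2. Some, such as Tesc and Tcfl5, reached the limit for testing only with TSA. Among those that rose with TSA alone, Tesc, which encodes the calcium-binding protein tescalcin, had 683, 524, 898 and 1175 with TSA, against 20.9, 27.5, 28.6 and 37.0, and 26.8 and 34.9 with BMP2, against 24.1 and 24.6. BMP2 arrays lay just above their controls without passing the test, and the difference was 3.61 (0.32, adjusted p = 5.66e-06). Tcfl5, a basic helix-loop-helix factor best known from the testis, had 1041, 732, 684 and 1241 with TSA, against 31.7 to 50.6, and 47.3 and 92.1 with BMP2, against 42.8 and 53.7. Its difference was 3.39 (0.31, adjusted p = 1.05e-05). The secreted ribonuclease Rnase4 was near 0 on the 8 other arrays and spread from 85.7 to 960 with TSA.

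**Figure D2:**
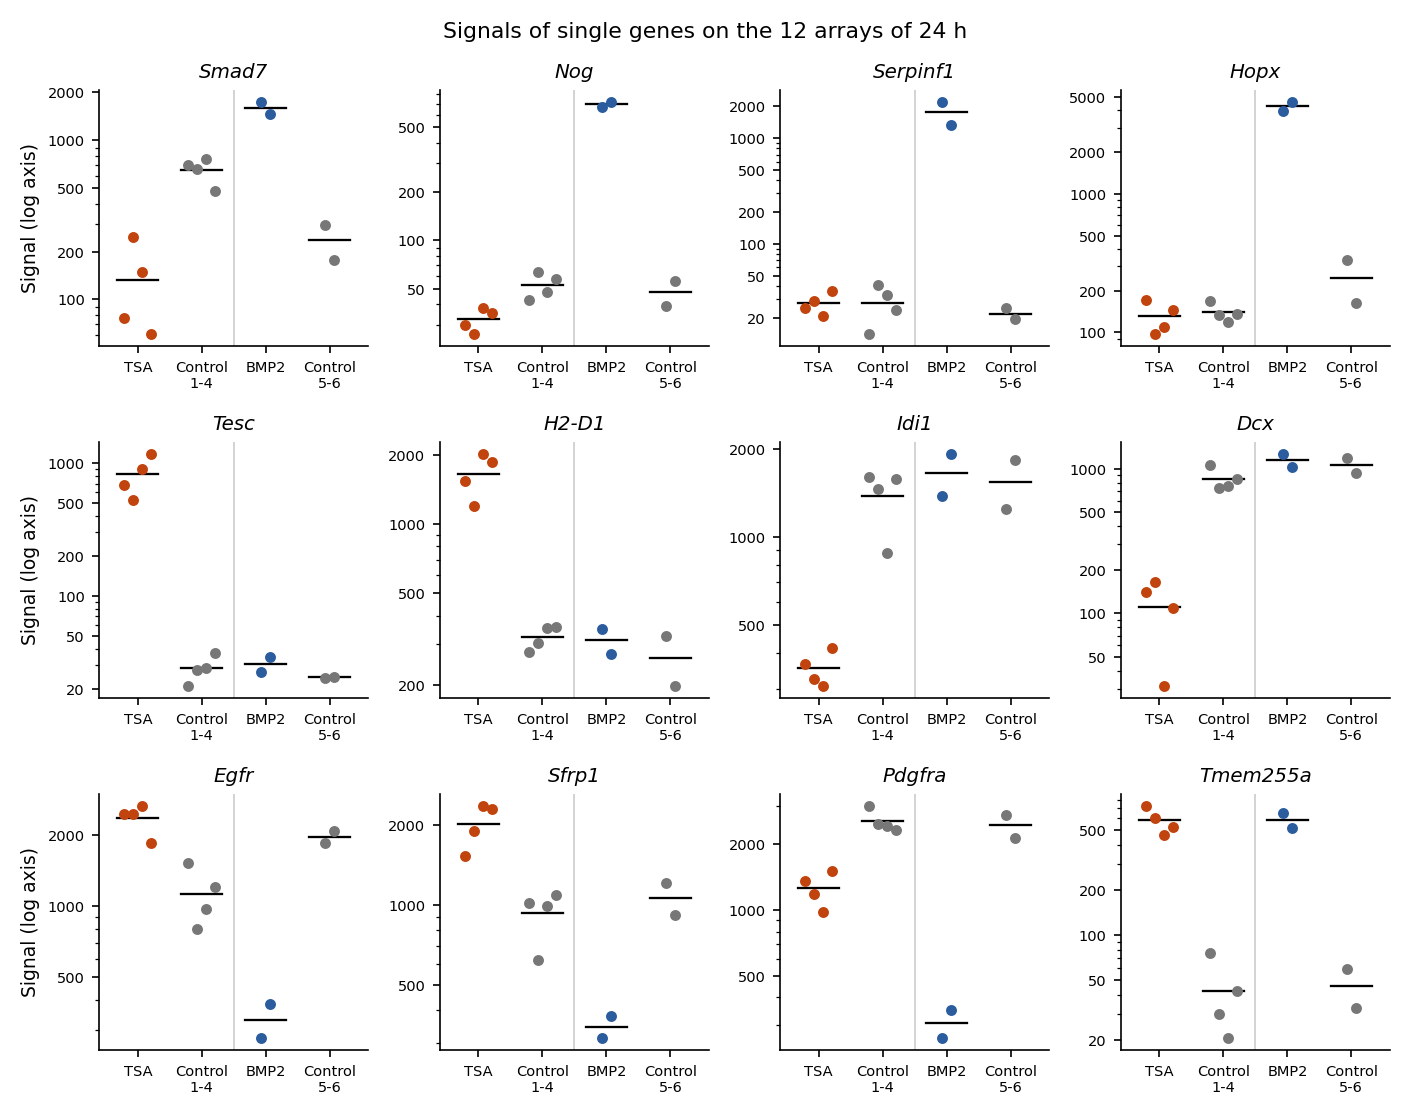
Normalized signals (logarithmic vertical axes) of 12 genes on the 12 arrays of 24 h, with 1 point per array and the group mean as a line, TSA and controls 1 to 4 left of the gray line and BMP2 and controls 5 and 6 right of it. Serpinf1, Hopx and Nog were high with BMP2 alone, Tesc and H2-D1 with TSA alone, Idi1 and Dcx were low with TSA alone, Egfr and Sfrp1 moved in opposite directions, and Tmem255a was high with both.

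Genes of antigen presentation by MHC class I mostly rose with TSA. Of 8 tested members 5 had a higher TSA effect and 1 a lower one, against 7.37% and 7.18% of all genes, with a median difference of 0.93. TSA raised 6 and lowered 1, against 19.2% and 18.6% of all genes. BMP2 changed 0 of the 8 in limma, at an adjusted or an unadjusted p under 0.05. Without BMP2 replicate 2, TSA replicate 4 or any 1 of controls 3, 4 and 5, only 3 members had a higher TSA effect. H2-D1, a heavy chain, had 1540, 1197, 2023 and 1867 with TSA, against 278, 304, 354 and 355, and 351 and 272 with BMP2, against 327 and 197. The difference was 1.98 (0.31, adjusted p = 7.45e-04). H2-K1 differed by 1.92, and the light chain B2m by 1.16, while the peptide transporters Tap1 (1.12) and Tap2 (0.75) lost their calls under 10 of 21 and 11 of 22 other settings. Psmb10, a subunit of the immunoproteasome, went against the list, with 41.5, 40.5, 23.8 and 49.4 on TSA arrays, against 142, 105, 135 and 167, and 170 and 203 with BMP2, against 230 and 238. Its TSA effect was -1.26 and its difference -0.97 (0.24, adjusted p = 0.014), a call lost without BMP2 replicate 2 (adjusted p = 0.0789). H2-D1 and H2-K1 are close in sequence, so their probe sets may share signal.

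Genes of cholesterol synthesis mostly fell with TSA. It lowered 12 of 18 tested members and raised 0, against 18.6% and 19.2% of all genes. BMP2 changed 0 in limma after adjustment, and raised 2 and lowered 1 at an unadjusted p under 0.05. The difference was lower in 6 and higher in 0, against 7.18% and 7.37% of all genes, with a median of -0.78. Idi1, the isopentenyl diphosphate isomerase, had 367, 327, 308 and 415 with TSA, against 1598, 1462, 877 and 1581, and 1385 and 1927 with BMP2, against 1242 and 1829. TSA arrays lay below each control, BMP2 arrays within the range of theirs or just above it, and the difference was -1.95 (0.32, adjusted p = 9.83e-04). Cyp51 differed by -1.67, Insig1, a sterol sensor of the endoplasmic reticulum, by -1.18, and the synthase Hmgcs1 by -0.92. Leaving out single arrays gave 4 to 7 lower members.

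Among neuronal genes 5 of 19 tested members had a lower and 1 a higher TSA effect, against 7.18% and 7.37% of all genes. The counts were 9 and 3 with the replicate block, and the median difference was -0.40. Without control replicate 6 or BMP2 replicate 1, 2 members were lower. Dcx, the microtubule protein doublecortin of migrating neuroblasts, had 140, 164, 31.4 and 109 with TSA, against 1061, 732, 752 and 842, and 1268 and 1019 with BMP2, against 1177 and 932. TSA arrays lay below their controls without overlap, BMP2 arrays overlapped theirs, and the difference was -2.84 (0.48, adjusted p = 0.00132). Nrcam, a neuronal adhesion molecule, rose with both agents, by 0.41 with TSA and by 1.47 with BMP2, and Celf4, an RNA-binding protein, rose with BMP2 by 1.77. The call of Celf4 in the difference (-1.53) was lost without control replicate 6 or BMP2 replicate 1 (highest adjusted p = 0.105). Rbfox3, the gene of the neuronal antigen NeuN, went against its list at 1.53, with 84.3, 100.0, 137 and 86.1 on TSA arrays, against 63.6, 43.2, 89.4 and 122, and 124 and 118 on BMP2 arrays, against 365 and 291. The BMP2 arrays lay within the range of the TSA arrays, controls 5 and 6 lay above controls 1 to 4 by 1.73, and with all 6 controls as 1 group the difference was -0.21 (adjusted p = 0.766).

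Of the 122 opposite genes, 69 rose with TSA and fell with BMP2. Egfr, the receptor of epidermal growth factor, had 2443, 2435, 2647 and 1833 with TSA, against 1511, 799, 971 and 1202, and 277 and 387 with BMP2, against 1839 and 2071. Neither pair overlapped. The TSA effect was 1.07 (0.17), the BMP2 effect -2.46 (0.24) and the difference 3.53 (0.30, adjusted p = 4.65e-06). Controls 5 and 6 lay above controls 1 to 4 by 0.82 (adjusted p = 0.0136), and with all 6 controls as 1 group TSA lay above BMP2 by 2.71.

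Other genes that rose with TSA and fell with BMP2 were Efhd1, a calcium-binding protein of mitochondria (difference 3.76), the monooxygenase-like Moxd1 (3.51), the surface glycoprotein Thy1 (3.41), Car8, a carbonic anhydrase-related protein (3.37), and the claudin Cldn10 (3.28). Thy1 had 388, 342, 487 and 563 with TSA, against 56.4, 51.6, 38.6 and 67.2, and 30.3 and 29.2 with BMP2, against 74.7 and 99.3. Nes, the intermediate filament gene of neural precursors, belonged here too on its brightest probe set, by 1.44 and -1.42. Another Nes probe set had effects of 0.26 and -0.03 and a difference of 0.29 that did not pass (adjusted p = 0.493). Ildr2 had the highest difference of all named genes, 4.42, with a standard error of 0.89. Its BMP2 effect of -1.97 did not pass (adjusted p = 0.111), and control replicate 1, at 605, overlapped the TSA arrays at 544 to 1950. A second Ildr2 probe set differed by 2.06 without passing (adjusted p = 0.103). Grm5, a metabotropic glutamate receptor, differed by 3.83 and lost the call without BMP2 replicate 1 (adjusted p = 0.0551). A second Grm5 probe set differed by 4.13 and passed (adjusted p = 0.00325, limma).

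The 53 genes that fell with TSA and rose with BMP2 included the kinase Nuak1 (difference -4.33), Spsb1, a substrate adaptor of a ubiquitin ligase (-3.34), and the stathmin-like Stmn4 (-3.12). A second Spsb1 probe set differed by -0.40 only (adjusted p = 0.355). In these 3, as in Smad7, controls 5 and 6 lay below controls 1 to 4, with differences of -1.34 for Nuak1, -1.28 for Spsb1 and -1.64 for Stmn4. Stmn4 had 451, 545, 577 and 355 with TSA, against 1990, 1121, 1300 and 1105, and 1327 and 1439 with BMP2, against 541 and 308. Its BMP2 arrays thus lay within the range of controls 1 to 4, and its TSA arrays from within the range of controls 5 and 6 to just above it. With all 6 controls as 1 group the differences remained called, at -3.45 for Smad7, -2.99 for Nuak1, -2.07 for Spsb1 and -1.48 for Stmn4 (adjusted p = 0.0344).

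Of 16 receptor tyrosine kinases and related receptors, 3 had a higher and 2 a lower TSA effect, where 14.5% of all genes differed. The counts were 6 and 3 with the replicate block and 2 and 1 without control replicate 6 or BMP2 replicate 1. Pdgfra, the receptor that marks oligodendrocyte precursors, fell with both, to 1367, 1185, 982 and 1511 with TSA, against 3004, 2464, 2427 and 2315, and to 261 and 349 with BMP2, against 2733 and 2146. The fall was larger with BMP2, by 1.87 (0.29, adjusted p = 6.55e-04), on this probe set. Another Pdgfra probe set fell with both (-1.06 and -1.53), and its difference of 0.47 did not pass (adjusted p = 0.445). Kit fell with TSA alone, to 24.6 to 66.2 against 189 to 404, and differed by -2.04 (0.35, adjusted p = 0.00135). Genes that respond to FGF and ERK signaling and feed back on it had 6 of 16 members with a higher TSA effect and 0 with a lower one in limma, or 8 and 2 at an unadjusted p under 0.05 and also 8 and 2 with the replicate block. The median difference was 0.73. Of all genes, 7.37% had a higher and 7.18% a lower TSA effect. Spred1, an inhibitor of Ras signaling, had 2011, 2394, 2151 and 1690 with TSA, against 1845, 1699, 1542 and 1460, and 826 and 919 with BMP2, against 1271 and 1256. It differed by 0.84 (0.18, adjusted p = 0.0065), while the phosphatase Dusp6 (1.94), the inhibitor Spry4 (1.31) and the ETS factor Etv5 (1.22) had adjusted p of 0.0387, 0.0359 and 0.0334 and lost their calls under 11, 6 and 7 of 23 other settings. A second Spry4 probe set differed by 0.61 without passing (adjusted p = 0.0927). Other Etv5 probe sets differed by 1.56 and 1.22 and passed (adjusted p = 0.0449 and 0.0386, limma). Only 1 member was higher without control replicate 6 or BMP2 replicate 1, 2 without TSA replicate 1 or control replicate 2 or 3, and 3 without TSA replicate 3 or control replicate 5.

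Wnt pathway genes stood on both sides. Of 27 tested, 6 had a higher and 4 a lower TSA effect, against 7.37% and 7.18% of all genes. The secreted Wnt binders Sfrp1, Sfrp2 and Frzb were among the higher, and the lower were the secreted inhibitors Wif1 and Dkk1 and the receptors Fzd1 and Fzd5. Sfrp1 had 1521, 1894, 2360 and 2295 with TSA, against 1010, 618, 991 and 1089, and 314 and 380 with BMP2, against 1208 and 916. Both pairs were without overlap and in opposite directions, with a difference of 2.63 (0.29, adjusted p = 5.34e-05). Sfrp2 behaved likewise, at 1.51 and -1.24, and Frzb rose with TSA by 1.89. Dkk1 had 21.1 to 25.3 on TSA arrays, against 22.4 to 39.2, and 190 and 135 with BMP2, against 24.7 and 36.8, a difference of -1.75 (0.25, adjusted p = 4.28e-04). Fzd5 differed by -2.45 and Fzd1 by -1.02.

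In the Notch pathway 2 of 20 were higher and 3 lower, where 14.5% of all genes differed. The counts were 6 and 4 with the replicate block and 1 and 1 without control replicate 6, with 3 calls in all without either BMP2 array. The ligand Dll1 fell with BMP2 (effect -1.92) and differed by 2.33 (0.44, adjusted p = 0.00289). The target Hey1 had 1530, 1283, 859 and 1277 with TSA, against 1529, 1449, 953 and 1382, and 4392 and 4532 with BMP2, against 1057 and 1412. It differed by -1.95 (0.32, adjusted p = 9.93e-04).

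Of 11 histone deacetylases 2 had a higher and 1 a lower TSA effect, where 14.5% of all genes differed. Of these 3 only Hdac11 passed without control replicate 6, and 2 passed without either BMP2 array. Hdac11 had 718, 596, 654 and 656 with TSA, against 410, 356, 330 and 358, and 212 and 227 with BMP2, against 437 and 443. It rose with TSA (0.80), fell with BMP2 (-0.91) and differed by 1.71 (0.16, adjusted p = 1.14e-05). Hdac9 rose with BMP2 by 1.48 and differed by -1.67. It lost this call without control replicate 6 (adjusted p = 0.0505). Hdac7 fell with BMP2 (-1.08) and differed by 1.22, a call lost under 12 of 23 other settings. Of 33 other chromatin genes 4 were lower and 1 higher, a share near that of all genes (14.5%), or 8 and 6 with the replicate block and 2 and 0 without control replicate 6 or BMP2 replicate 2. Chd3, a helicase of the NuRD complex, fell with TSA (-1.67) and differed by -1.69, and Kmt5b, a methyltransferase of histone H4, fell (-1.41) and differed by -1.53. The acetyltransferase Kat2b had 369, 549, 274 and 345 with TSA, against 918, 752, 622 and 690, and 570.5 and 534 with BMP2, against 483 and 377. It differed by -1.27 (0.30, adjusted p = 0.0108), with controls 5 and 6 below controls 1 to 4 (-0.75), and lost the call without control replicate 6, without BMP2 replicate 1 or with all 6 controls as 1 group (highest adjusted p = 0.146).

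Redox and stress genes had 6 of 21 members with a higher and 1 with a lower TSA effect, against 7.37% and 7.18% of all genes. Gstt3, a glutathione transferase, had 205, 45.7, 150 and 249 with TSA, against 2.54 to 8.52, and 4.88 and 4.86 with BMP2, against 5.53 and 3.45. The difference was 2.20 (0.50, adjusted p = 0.00911). Txn1, encoding thioredoxin, had 7511, 7740, 6416 and 6387 with TSA, against 4954, 4275, 3813 and 4781, and 4668 and 5298 with BMP2, against 5792 and 6676. It rose with TSA by 0.65 and differed by 0.97, and controls 5 and 6 lay above controls 1 to 4 by 0.49. Gstt1 (2.30), Gstm1 (0.90), Ddit4 (0.80) and Sesn2 (0.76) were also higher, each with a call that 2 to 4 of 23 other settings took away. Other Gstm1 probe sets differed by 0.97 to 1.36 and passed (highest adjusted p = 0.0333, limma). Without control replicate 6 or BMP2 replicate 1 or 2 3 members of the list were higher.

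Of 17 heat shock genes 2 had a higher and 4 a lower TSA effect, against 7.37% and 7.18% of all genes. The list held 2 calls without control replicate 6, and without BMP2 replicate 1 or 2 or control replicate 5 it held 3. Hspb8, a partner of Cryab, had 257, 298, 242 and 324 with TSA, against 124, 280.2, 196 and 111, and 1369 and 680 with BMP2, against 93.9 and 31.3. It rose with BMP2 by 3.48 and differed by -2.85 (0.52, adjusted p = 0.00243), with controls 5 and 6 lower than controls 1 to 4 (-1.16). Hspa1b, the inducible Hsp70 chaperone, rose with TSA by 0.92 and differed by 1.02 (0.27, adjusted p = 0.0231), a call lost without BMP2 replicate 2 or control replicate 5 or 6. Other Hspa1b probe sets differed by 1.18 and 1.08 and passed (adjusted p = 0.0278 and 0.028, limma).

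Of 12 ephrins and Eph receptors 2 had a higher and 3 a lower TSA effect, against 7.37% and 7.18% of all genes. Only 1 of these 5 calls held without control replicate 6. Of 17 synapse genes 3 had a lower TSA effect and 0 a higher one, where 14.5% of all genes differed. At an unadjusted p under 0.05 in limma the synapse counts were 4 and 0. Efna3, an ephrin ligand of Eph receptors, had 427, 229, 460.5 and 495 with TSA, against 22 to 33.2, and 84.4 and 67.7 with BMP2, against 73.1 and 32.4. It differed by 2.46 (0.34, adjusted p = 3.45e-04), and Efna5 by -1.17, a call lost without control replicate 6 or BMP2 replicate 2 (highest adjusted p = 0.0896). Cadps, which primes dense core vesicles for release, had 453, 371, 198 and 315 with TSA, against 529, 447, 339 and 378, and 2095 and 1791 with BMP2, against 431 and 349. It differed by -2.58 (0.33, adjusted p = 1.63e-04), and the vesicle GTPase Rab3a by -1.69. Of 34 cell cycle genes 2 were lower, Ccne2 (-1.68) and Pcna (-0.75), and 0 higher in limma, a share below that of all genes (14.5%). The median difference of this list was nonetheless -0.63, against -0.01 over all genes, and -0.93 to -0.35 with single arrays left out. The cell cycle counts were 7 and 2 both at an unadjusted p under 0.05 and with the replicate block. Ccne2 and Pcna lost their calls under 3 and 11 of 23 other settings. Cdkn1c, a cyclin-dependent kinase inhibitor, fell with TSA (-0.46), rose with BMP2 (0.84) and differed by -1.30 (0.27, adjusted p = 0.00584), with controls 5 and 6 above controls 1 to 4 by 1.15.

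Of 17 stem cell and radial glia genes 2 had a higher and 3 a lower TSA effect, where 14.5% of all genes differed, with a median difference of 0.03. Of 12 ganglionic eminence and GABAergic genes 2 were higher and 0 lower, a share near that of all genes (14.5%). Their median difference was 0.04, and 0 of the 12 differed when only the 12 arrays of 24 h were fitted. Single genes of both lists follow. Pax6, a factor of dorsal radial glia, rose with BMP2 by 0.70 and differed by -1.04 (0.22, adjusted p = 0.00594), while a second probe set differed by -0.61 without passing (adjusted p = 0.151). Gsx2, which patterns the lateral ganglionic eminence, had 76.8, 81.1, 305 and 402 with TSA, against 71.5, 59.2, 203 and 174, and 23.6 and 41.9 with BMP2, against 289 and 247. It fell with BMP2 (-2.22) and differed by 2.72 (0.74, adjusted p = 0.0242), a call lost without either BMP2 array or either of controls 5 and 6. Of the endothelial genes, 1 of 9 reached the limit, Kdr, the receptor of vascular endothelial growth factor. It rose with BMP2 to 306 and 254, against 93.9 and 62.6, and differed by -1.18 (0.27, adjusted p = 0.0109), a call lost without control replicate 6 or BMP2 replicate 1 (highest adjusted p = 0.0741).

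**Figure D3:**
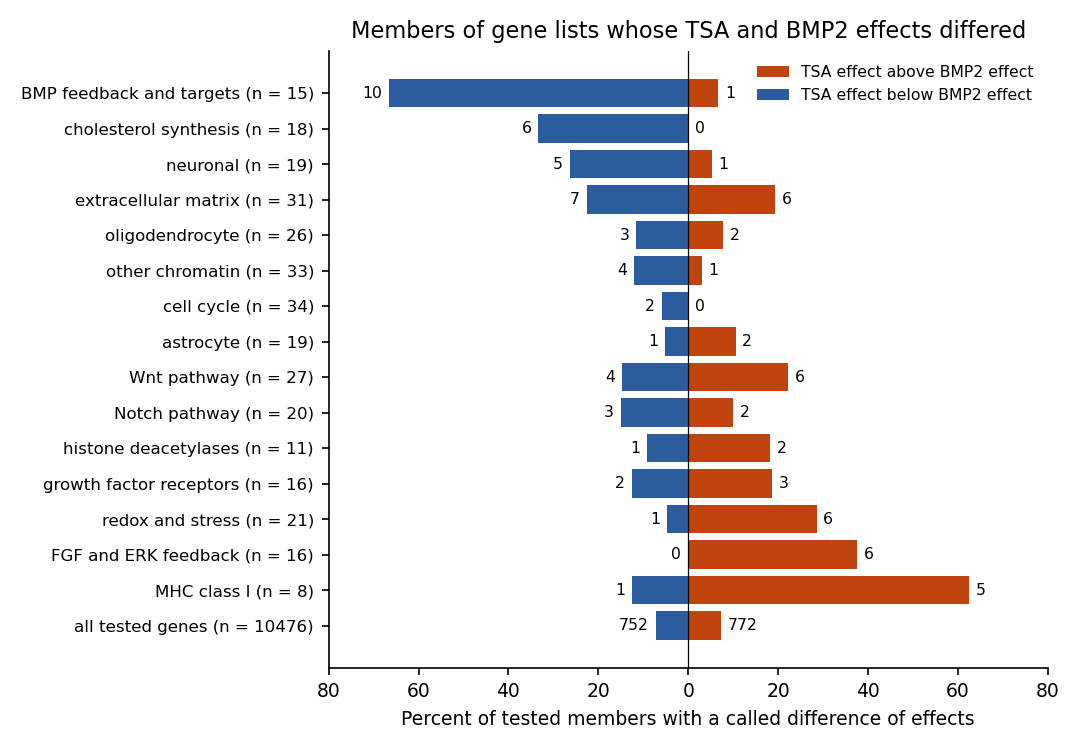
Percent of the tested members of 15 gene lists, and of all genes, whose TSA effect lay above the BMP2 effect (red, right) or below it (blue, left), with the number of members at each bar. BMP feedback genes (10 of 15) and cholesterol synthesis genes (6 of 18) lie mostly left, MHC class I genes (5 of 8) and FGF and ERK feedback genes (6 of 16) mostly right, and all genes are even at 752 and 772.

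Oligodendrocyte genes mostly fell with TSA, and many with BMP2 also. TSA lowered 23 of 26 tested members and BMP2 14, against 18.6% and 5.19% of all genes. Both lowered 13, where 266 of all 10476 genes fell with both. Members raised by either were 0, also at an unadjusted p under 0.05 in limma. The effects differed in 5 members, 2 higher and 3 lower, where 14.5% of all genes differed. The counts were 2 and 6 with the replicate block and 1 and 1 without control replicate 6 or BMP2 replicate 1. Gpr17, a receptor of committed precursors, had 247, 752, 44.6 and 66.4 with TSA, against 4383, 4738, 5096 and 4315, and 113 and 165 with BMP2, against 3574 and 4517. The effects were -4.53 (0.51) and -4.58 (0.72), and their difference was 0.05 with a 95% interval of -1.83 to 1.93. That interval is wide, and the TSA arrays spread from 44.6 to 752, so that equal effects were not shown. The factors Sox10 (-2.42 and -2.55) and Myrf (-2.88 and -3.37) and the marker Bcas1 (-2.67 and -3.37) also fell with both, and their differences did not pass the test. The fall of Myrf with BMP2 missed the threshold without control replicate 6 (adjusted p = 0.0523).

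The higher members were Pdgfra and Olig2. Olig2, the factor that specifies the lineage, fell with BMP2 (-0.96), had a TSA effect of -0.17 that did not pass, and differed by 0.79 (0.18, adjusted p = 0.00888). Without control replicate 6 or BMP2 replicate 1 that call was lost (highest adjusted p = 0.0663). The lower members were Nkx2-2, an early factor of the lineage that fell with both (-2.86 with TSA and -1.33 with BMP2), and the myelin genes Mal and Mog, with differences of -1.53, -2.98 and -3.09. For Mal and Mog the control sets did not start level, by -4.53 and -3.40. Mal had 185, 171, 37.4 and 122 with TSA, against 1540, 1145, 1003 and 1198, and 27.5 and 10.9 with BMP2, against 37.6 and 9.38. Mog had 33.3, 26.9, 3.55 and 3.21 with TSA, against 962, 264, 429 and 545, and 4.29 and 7.66 with BMP2, against 24.8 and 12.4. Controls 5 and 6 were thus already near background, and with all 6 controls as 1 group the differences were 1.55 and 0.30 (adjusted p = 0.361 and 0.827). Leaving out single arrays or other settings took the call from Mal under 13 and from Nkx2-2 under 14 of 23.

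Mobp and Mag, also myelin genes, showed the same starting gap, with controls 5 and 6 minus controls 1 to 4 at -4.77 and -2.90, and their differences of -3.63 and -2.39 did not pass. The summed signal of the 26 members was 19400 to 37000 on TSA arrays and 69500 to 80300 on controls 1 to 4, against 18400 to 18700 on BMP2 arrays and 52000 to 52600 on controls 5 and 6. In these cultures fewer oligodendrocytes and less RNA per cell cannot be told apart. Gfap, the intermediate filament of astrocytes, had 4373, 4139, 4101 and 3262 with TSA, against 1494, 2975, 2325 and 2564, and 951 and 142 with BMP2, against 623 and 102. Controls 5 and 6 lay below controls 1 to 4 (-2.96), BMP2 replicate 2 and the control at 102 lay far below their partners, and neither effect passed the test.

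Astrocyte genes had 2 of 19 members with a higher and 1 with a lower TSA effect, a share near that of all genes (14.5%), or 6 and 2 with the replicate block. Without control replicate 5, without BMP2 replicate 2 and under both other scalings 0 were higher, and without control replicate 6 none was lower. Aqp4, the water channel of astrocyte endfeet, had 2391, 4234, 3034 and 2350 with TSA, against 4283, 4966, 4541 and 4738, and 6195 and 5266 with BMP2, against 4429 and 3254. It differed by -1.25 (0.27, adjusted p = 0.00738), a call lost without control replicate 6 (adjusted p = 0.0578). Its other probe sets differed by -1.86 and -2.15 and passed (adjusted p = 0.0345 and 0.0147, limma). Cd44, an adhesion receptor of astrocyte precursors, rose with both, by 1.47 and 0.74, and more with TSA (0.73, adjusted p = 0.0245), a call lost under both other scalings and 3 other settings. Other Cd44 probe sets differed by 0.97 and 1.52 and passed (adjusted p = 0.0159 and 0.0309, limma).

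**Figure D4:**
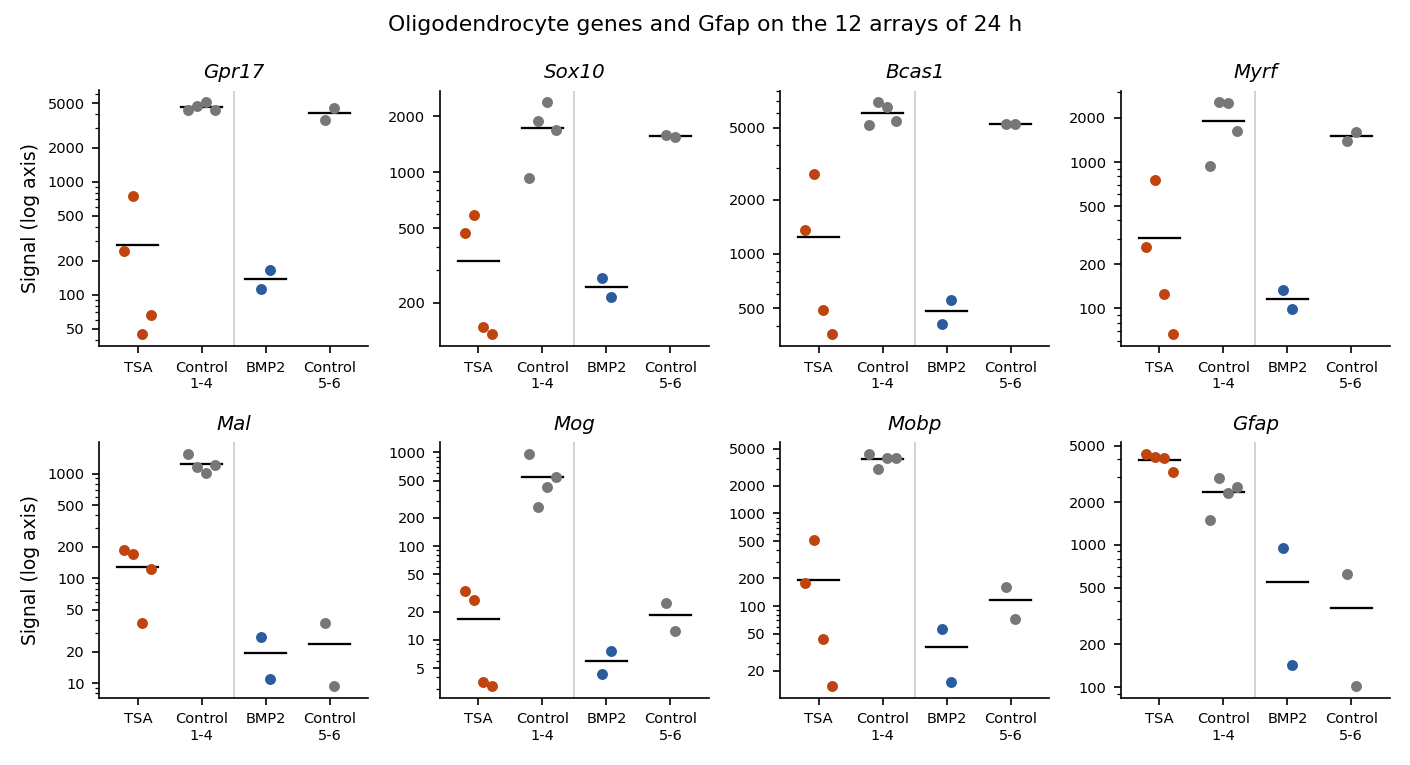
Normalized signals (logarithmic vertical axes) of 7 oligodendrocyte genes and Gfap on the 12 arrays of 24 h, with 1 point per array and the group mean as a line. Gpr17, Sox10, Bcas1 and Myrf were low with TSA and with BMP2 against level controls, while Mal, Mog, Mobp and Gfap were already dim on controls 5 and 6.

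Outside the glial lists, effects of nearly equal size were also found. A 95% interval of the difference within -1 to 1 was met by 135 genes that rose with both and 143 that fell with both. Tmem255a, a membrane protein, had 729, 604, 465 and 528 with TSA, against 76.5, 29.7, 20.6 and 42.2, and 648 and 515 with BMP2, against 59.5 and 32.4. It rose by 3.08 with TSA and 2.99 with BMP2, a difference of 0.09 (interval -0.66 to 0.85). Of its 3 other probe sets, 1 had a higher TSA effect, by 1.18 (adjusted p = 0.0489), and 2 did not differ by the test. Fn1, the matrix protein fibronectin, rose by 1.68 and 1.5, and the water channel Aqp11 by 1.69 and 2.05. Plppr1, a neuronal membrane protein, had 312, 238, 201 and 261 with TSA, against 1554, 1016, 1151 and 1127, and 241 and 298 with BMP2, against 1311 and 1283. Its effects were -2.12 and -2.15, a difference of 0.02 (interval -0.54 to 0.59). Gpd1, a glycerol phosphate dehydrogenase, fell with both (-2.25 and -2.19), as did Phactr3, a phosphatase regulator (-2.10 and -2.34). For each of these genes TSA and BMP2 arrays lay beyond their own controls without overlap, which their choice by large called effects makes likely.

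A contrast at 6 h comes from other arrays, 2 with TSA and 2 with BMP2, set directly against each other without controls. At 6 h TSA lay above BMP2 in 1900 genes (18.1%) and below it in 1588 (15.2%). Of the 772 genes with a higher TSA effect at 24 h, 392 (50.8%) were also higher with TSA at 6 h and 18 were lower. Of the 752 with a lower TSA effect, 416 (55.3%) were also lower at 6 h and 18 were higher. Nog already differed by -5.25 at 6 h, Smad7 by -3.58, Smad6 by -3.52 and Wif1 by -3.40. Tesc (2.67), Tcfl5 (2.54) and Car8 (2.49) were the highest of the 12 leading TSA genes at 6 h.

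Others of the leading genes differed at 24 h without a call at 6 h. Npvf differed by -0.38 at 6 h (adjusted p = 0.458), Stum by -0.41 (0.174), Cryab by -0.37 (0.776), Rnase4 by 0.17 (0.869), Grm5 by 0.59 (0.577), Ildr2 by 1.21 (0.237) and Nid1 by 1.02 (0.0576). The same held for the cholesterol genes Idi1 (-0.58) and Cyp51 (-0.33). Pdgfra and Rbfox3 were called in opposite directions at the times, at -1.01 and -1.05 at 6 h against 1.87 and 1.53 at 24 h. These measures are unlike, since the 6 h values subtract no controls. With all 6 controls of 24 h as 1 group, where controls cancel, Rbfox3 was at -0.21 (adjusted p = 0.766, limma). A reversal of Rbfox3 between the times is therefore not shown.

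**Figure D5:**
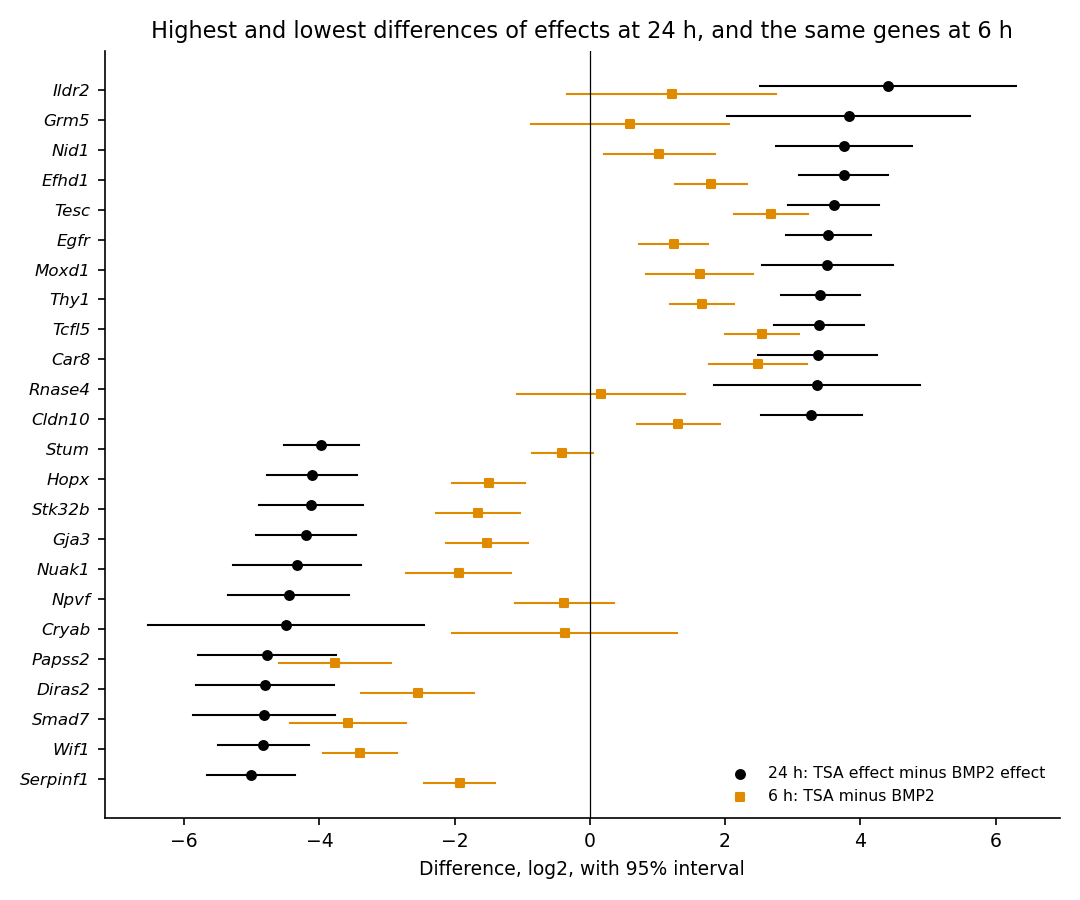
Difference between TSA and BMP2 on the log2 scale (horizontal axis, with 95% intervals) for the 12 highest and 12 lowest differences of effects at 24 h (black circles) and for the same genes at 6 h (orange squares). All 24 points of 6 h lie on the side of their 24 h value, from 2.67 for Tesc to -3.77 for Papss2, and 7 of them were not called.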

How the data were processed

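Labelled RNA of 18 samples was hybridized to Mouse Genome 430 2.0 arrays. Per array and probe set, the deposited value is 1 linear signal, an intensity computed by the authors. The submitters' notes name MAS5, version not given, while the methods name dChip with quantile normalization. Deposited medians of the 12 arrays were 35.4 to 41.6.

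Signals were quantile-normalized over the 18 arrays and fitted as log2(signal + 32) in 7 groups with limma 3.58.1 (R 4.3.3, eBayes with trend), the 24 h controls as 2 groups. The number of arrays limits the precision. The platform annotation paired 34958 probe sets with 1 gene, 932 with several and 9211 with none, and only the first are named. Equal replicate numbers paired TSA with control arrays 1 to 4, with residual correlations of 0.478 to 0.624, each highest at its own number. BMP2 and controls 5 and 6 share no number. Whether these arrays pair was not tested, and the replicate block leaves them unpaired. If they do pair, the errors of the BMP2 effect and of the difference are misstated. The fit was tested on simulated data.

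Named genes are the 12 highest and lowest differences, leading opposite and equal effects, up to 4 members per list by adjusted p, members against their list, and genes the study names. Outside this rule, with values seen, stand Sox2, Fabp7, Dlx2, Id3, Id4, Tnc, Tnr, Vcan, Tap1, Tap2, Dusp6, Frzb, Gstt1, Ddit4 and Sesn2. Members, the 35 lists and tests were chosen with earlier results of these data known. Other settings were scalings, pseudocounts, filters, arrays, variance trend, probe sets, block and controls. List names without a probe set here are not analysed.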

Additional observations from a re-analysis of the deposited data

Results flagged for a closer look

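An array stood far from the other 3 of its group in 11 of 252 groups of 4 arrays looked at (4.37%), and chance alone is expected to set apart about 1 in 20. Of TSA arrays, replicate 2 was high for Bmpr1a at 2740 (others 2300 to 2340) and low for Nid1 at 427 (831 to 936) and Kdelr3 at 228 (467 to 534), replicate 3 was low for Id2 at 1330 (2780 to 3030), and replicate 1 was low for Efna5 at 94.9 (149 to 153). Of controls 1 to 4, replicate 2 was high for Id2 at 4860 (4010 to 4080) and low for Sfrp1 at 618 (991 to 1090) and Cdkn1c at 163 (217 to 219). Replicate 3 was low for Cryab at 210 (281 to 295) and Idi1 at 877 (1460 to 1600), and replicate 4 was high for Insig1 at 1510 (914 to 995). Groups of 2 arrays cannot be looked at in this way.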

How the results depend on the processing

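The count of probe sets whose effects differed was 2522, of which 2521 stayed called in the same direction with the replicate block and 1582 of 2518 when only the 12 arrays of 24 h were fitted. It became 1622 with only these arrays, 1637 with only the brightest probe set of each gene, 4808 with the replicate block and 7309 with all 6 controls as 1 group, a setting in which the controls cancel. Single arrays left out gave 1374 to 3135. The count for TSA, 6552, became 4123 with the brightest probe sets and 1460 by the criteria of the methods (ratio over 2, difference over 100, unadjusted p under 0.1), and 5532 to 7025 without single arrays. The count for BMP2, 1913, became 3451 with the replicate block, 3205 with all 6 controls, 1177 by the criteria of the methods, and 928 to 2117 without single arrays. Opposite changes, 201, became 124 with only the 12 arrays, 530 with the block and 103 to 236 without single arrays, and changes in the same direction, 782, became 514, 1545 and 380 to 904. Scaling to 1 median per array gave 2310 TSA calls upward and 4574 downward (33.6% upward), against 3156 and 3396 (48.2%), and 273 and 498 in the same direction, against 370 and 412. It put the median TSA effect over genes at -0.10 and the median difference at -0.07. Of 3256 comparisons of 142 gene results with another setting, 3073 kept call and direction, 180 fell short of the threshold and 3 reversed, all with the 6 controls as 1 group, an alternative chosen after seeing the data for single genes (Rbfox3 -0.21, Mal 1.55, Mog 0.30). Signals near background bound what a fall can show.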
